A study of Mus musculus with 16 samples.

Results

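Deubiquitinating enzymes were examined in fibroblasts from mouse embryos (MEF), either wild-type or CHOP-/-, with and without the proteasome inhibitor MG132. Members were all genes named Usp with a number, all Otud and Otub genes, and Uchl1, Uchl3, Uchl5, Bap1, Cyld, Atxn3, Josd1, Josd2, Brcc3, Stambp and Stambpl1, other than those on X and Y. Each was represented by the probe set that names it alone and has the highest mean over all arrays. This gave 59 of the 18193 genes on the array with such a probe set, of which 54 of 11457 passed the filter on low signals and were tested. Josd1, Uchl3 and Usp35 had no probe set of their own, and Brcc3, Otud5, Usp11 and Usp26 were left out because they lie on X.

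The study held 16 Affymetrix arrays, 4 in each of 4 groups: CHOP+/+ (wild-type) MEF without stress, CHOP+/+ MEF given 1 µM MG132 for 8 h, and CHOP-/- (knockout) MEF under the same pair of conditions, harvested together. CHOP is the transcription factor encoded by Ddit3, and the series asked which responses to proteasome inhibition depend on it. The unstressed groups carry conflicting labels, no treatment in one field and DMSO, the solvent, in another; they are called untreated here. Each array came from its own culture plate, and the labels do not say whether plates came from separate embryos or isolations, so p-values measure the spread between plates, and genotype cannot be told apart from any other difference between the wild-type and knockout cultures.

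Ubiquitin is joined to proteins in chains that send them to the proteasome or change their activity, and deubiquitinating enzymes cut it off again. Most belong to the ubiquitin-specific protease (USP) family, with smaller families named after ovarian tumour proteases (OTU), ubiquitin C-terminal hydrolases (UCH), the Josephin domain and the JAMM zinc metalloproteases. Some sit on the proteasome and recycle ubiquitin from its substrates, others act on histones, receptors in endosomes, p53 and its regulators, or inflammatory signalling. Of the 59 members, 43 were USP genes, 8 OTU, 3 UCH including Bap1, 2 Josephin, 2 JAMM and 1 Cyld.

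The values are linear MAS5 signals, which the authors scaled on each array to the same trimmed mean of 1000, and tests used log2(signal + 16). A signal is given as the 4 single arrays or as mean ± SD (n = 4), and a change as log2 ± standard error (SE), with p adjusted over all 11457 genes. Levels of different genes come from different probes and are not compared. "Rose", "fell", "higher" and "lower" are used of differences past an adjusted p of 0.05, and single arrays are written as WT untreated 1, KO MG132 3 and so on.

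Ddit3 itself read 1017 ± 101 in wild-type cells left untreated and 7724 ± 587 in those given MG132, against 368 ± 24.0 and 396 ± 38.9 in the knockout groups, in the direction of the genotype labels. The labels do not state which segment of Ddit3 was deleted, or whether its probes fall there. All 12 fibroblast markers examined passed the filter on low signals. Their summed signal ranged from 162585 to 189668 in untreated and 144906 to 160084 in treated wild-type cells, and from 158886 to 174345 and 118556 to 124431 in the knockout. Markers of other cell types had summed signals whose ranges differed between groups: 4 of 6 epithelial genes passed the filter, with 291 to 533 in untreated and 872 to 1218 in treated wild-type cells, and 295 to 459.9 and 595 to 643 in the knockout. Macrophage and leukocyte genes (2 of 8 passed) gave 468 to 581, 676 to 845, 422 to 591 and 597.5 to 688 in the same order of groups, skeletal muscle genes (2 of 4) 1142 to 1439.6, 525 to 778, 534 to 767 and 551 to 742, and endothelial genes (1 of 4) 157.5 to 243, 148 to 225, 84.6 to 207 and 218 to 402. Their part in the results below was not tested. In such bulk samples, fewer cells of a type and less RNA per cell cannot be told apart. Array medians lay between 89.8 and 113, and correlations between arrays within a group were 0.979 to 0.985.

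In wild-type cells MG132 changed 38 of the 54 tested members, 24 upward and 14 downward, and in knockout cells it changed 35, of which 25 rose and 10 fell. Across all genes the test called 64% in wild-type and 62.4% in knockout cells, so the share of members called in wild-type cells, 70.4%, was near the background. The direction was distributed differently: 27.1% of all genes rose and 36.8% fell in wild-type cells, and 25.7% rose and 36.7% fell in the knockout. Members are grouped by role below, with 3 to 12 tested genes each, and those counts stand beside these shares of all genes. The share called by role ran from 33.3% to 100% in wild-type and from 40% to 85.7% in knockout cells. Whether any role differed from all genes was not tested. The median change of the members was 0.13 in wild-type and 0.16 in knockout cells, beside -0.07 for all genes in each. Centring each array on its median raised every change with MG132 below by about 0.20 in wild-type and 0.14 in knockout cells, so that the median change of all genes became 0.14 and 0.07. With centring, 33 members rose and 8 fell in wild-type cells, and 39 rose and 8 fell in the knockout. The rising share of member calls then went from 63.2% to 80.5% in wild-type and from 71.4% to 83.0% in knockout cells, and that of all calls from 42.4% to 61.7% and from 41.2% to 55.8%.

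Both genotypes shared 17 risers, which were 70.8% of the wild-type and 68.0% of the knockout risers. They were Atxn3, Bap1, Otud3, Stambp, Uchl1, Usp3, Usp14, Usp15, Usp19, Usp22, Usp28, Usp31, Usp33, Usp36, Usp38, Usp39 and Usp53. A further 9 members fell in both, 64.3% of the wild-type and 90.0% of the knockout decreases: Cyld, Usp10, Usp12, Usp20, Usp21, Usp25, Usp40, Usp42 and Usp46. Among all genes, 18.7% rose and 27.7% fell in both genotypes. Usp7 and Usp32 fell in wild-type and rose in knockout cells, though the wild-type value of Usp7 turned to 0.06 with median centring.

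**Figure D1:**
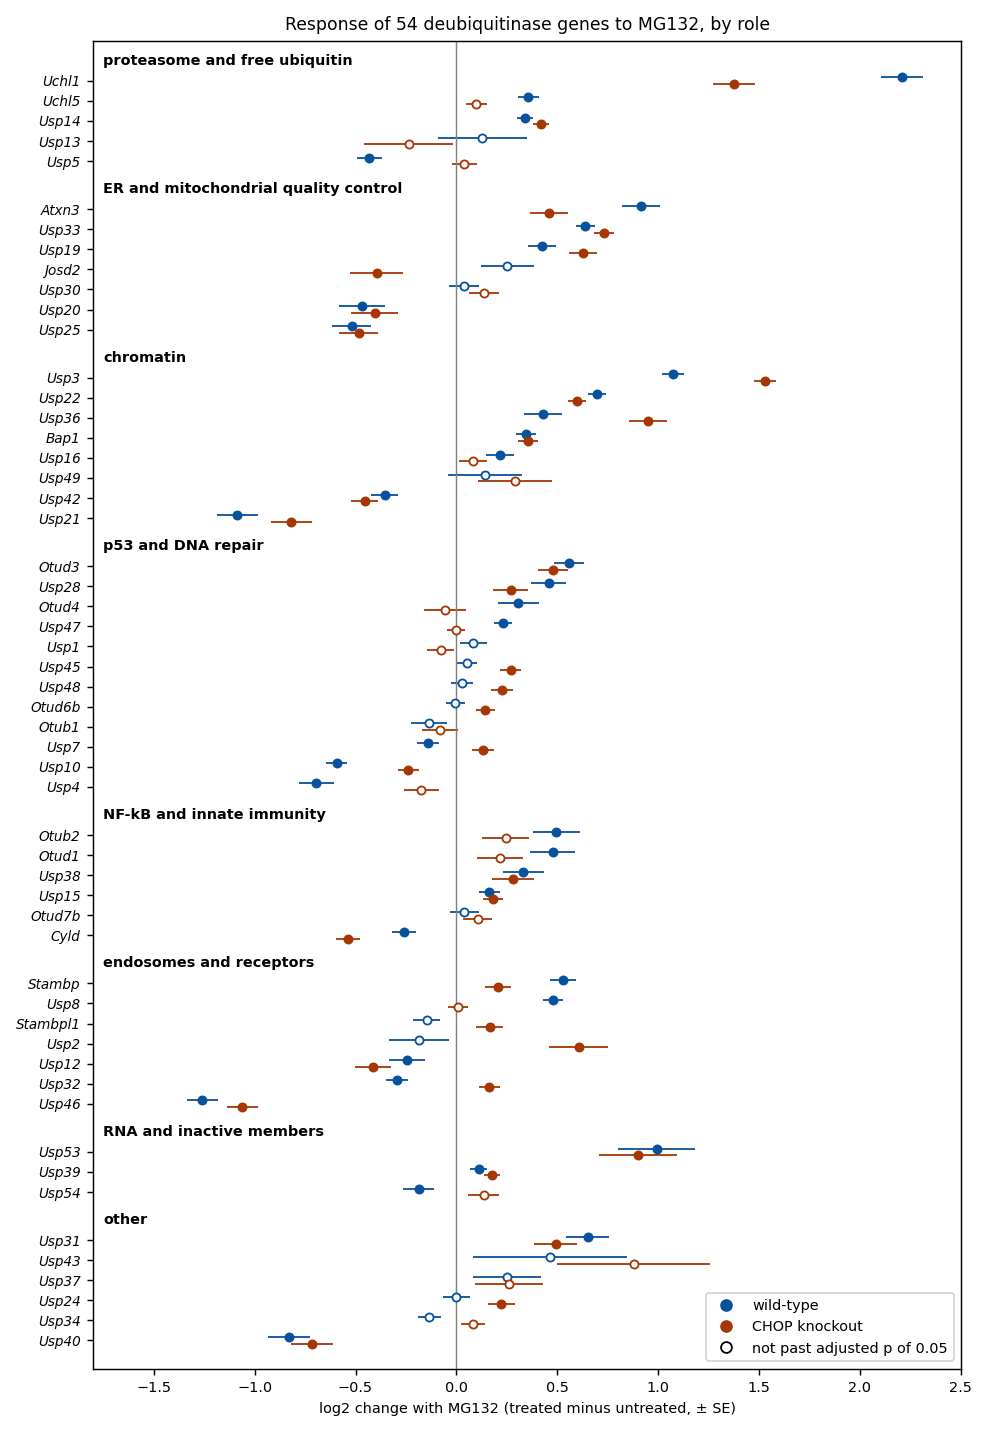
log2 change with MG132 (x axis, treated minus untreated, ± SE) of the 54 tested members, grouped by role, in wild-type (blue) and knockout (brown) cells, with 4 arrays per group. Filled points passed an adjusted p of 0.05. Uchl1 and Usp3 lie farthest to the right and Usp46 and Usp21 farthest to the left in both genotypes.

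The promoters of the largest risers and fallers were read, because these genes moved in the same direction in both genotypes. Sequences are from RefSeq on GRCm38.p6, from 250 bases before to 50 after the gene start, written on the strand of the gene. Of the 59 members, 46 matched the promoter table. Capitals mark the heat shock element GAANNTTC, the site shape of the heat shock factors, where it occurred. Uchl1 lies at chr5:66675871-66676170 on the plus strand, with a match whose first base is 162 bases before the start (position -162).
Uchl1: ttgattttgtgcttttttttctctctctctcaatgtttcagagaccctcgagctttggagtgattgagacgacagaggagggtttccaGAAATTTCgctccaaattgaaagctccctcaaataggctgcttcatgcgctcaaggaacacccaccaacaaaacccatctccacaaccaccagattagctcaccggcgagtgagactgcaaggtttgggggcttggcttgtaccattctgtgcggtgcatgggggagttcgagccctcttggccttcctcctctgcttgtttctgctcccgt
Usp3, at chr9:66593066-66593365 on the minus strand, and the fallers Usp46, at chr5:74068362-74068661 on the minus strand, and Usp21, at chr1:171287912-171288211 on the minus strand, held none of the motifs searched.
Usp3: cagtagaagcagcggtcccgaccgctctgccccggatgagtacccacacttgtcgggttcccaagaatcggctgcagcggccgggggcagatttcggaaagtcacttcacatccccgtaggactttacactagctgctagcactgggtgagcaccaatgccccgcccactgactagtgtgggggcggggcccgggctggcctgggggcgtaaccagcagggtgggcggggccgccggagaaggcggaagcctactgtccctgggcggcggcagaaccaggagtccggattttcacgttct
Usp46: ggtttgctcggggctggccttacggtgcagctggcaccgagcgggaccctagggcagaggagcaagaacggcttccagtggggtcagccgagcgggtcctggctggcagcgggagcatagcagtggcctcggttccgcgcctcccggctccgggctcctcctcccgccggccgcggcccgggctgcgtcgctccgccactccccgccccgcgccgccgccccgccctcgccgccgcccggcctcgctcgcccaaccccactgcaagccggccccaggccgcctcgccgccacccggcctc
Usp21: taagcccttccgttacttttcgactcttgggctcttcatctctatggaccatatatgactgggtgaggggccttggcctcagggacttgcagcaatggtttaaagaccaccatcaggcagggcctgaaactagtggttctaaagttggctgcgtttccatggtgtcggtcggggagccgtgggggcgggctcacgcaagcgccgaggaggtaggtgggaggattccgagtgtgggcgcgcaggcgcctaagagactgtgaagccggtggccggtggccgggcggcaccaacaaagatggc
Their GC content ran from 50.7% in Uchl1, with 9 CpG pairs, through 59.7% in Usp21 and 65.0% in Usp3 to 78.0% in Usp46, with 38 CpG pairs. The median was 63.7% over the 51 member promoters and 52.7% over all 32851.

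Both strands were searched for each motif. GAANNTTC stood in 7.86% of all promoters, or a promoter of 9.04% of all genes, and in 2 of the 46 members with a promoter, Uchl1 and Stambp, both of which rose in both genotypes. The E-box CACGTG, present in 7.15% of promoters and 8.09% of genes, occurred in 9 members. Of the 12 members with a promoter that rose in both genotypes 4 held it (Atxn3, Bap1, Otud3 and Usp31), and of the 8 that fell in both none did. The antioxidant and NRF1 element TGACNNNGC was in 12.4% of promoters, 13.99% of genes, and in 13 members, 3 of the 12 that rose and 4 of the 8 that fell. TGATGNAA, the composite site of C/EBP and ATF factors, was in 3.97% of promoters, 4.51% of genes, and in 0 of the 46 members. Member promoters held a median of 25 CpG pairs, beside 7 over all promoters, and the shares of all genes were not matched for such composition. A match of letters is a description of the window only.

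Among the 5 tested genes that act at the proteasome or on free ubiquitin, 3 rose and 1 fell in wild-type cells, and 2 rose in the knockout. Uchl1, a hydrolase known for its abundance in neurons and for binding free ubiquitin, read 229, 259.9, 248 and 239 in untreated wild-type cells and 989.7, 1276, 1208 and 1289 in treated ones. In the knockout, Uchl1 read 939, 1254, 1305 and 944 without and 2918, 2867, 2959 and 2762 with MG132. The 4 groups formed steps, with untreated wild-type cells lowest and treated knockout cells highest, and treated wild-type and untreated knockout cells overlapping. The change was 2.21 ± 0.10, adjusted p = 2.49e-13, in wild-type cells, the largest rise of any member there, and 1.38 ± 0.10, adjusted p = 4.21e-10, in the knockout. The responses differed by -0.83 ± 0.15, adjusted p = 0.000252 (knockout minus wild-type), while the level was higher in knockout cells by 2.10 ± 0.10, adjusted p = 5.97e-13, untreated and 1.27 ± 0.10, adjusted p = 1.69e-09, with MG132. Uchl1 is itself used as a neuronal marker, so 5 other neural genes (Tubb3, Map2, Rbfox3, Gfap and Sox10) were read beside it. All 5 passed the filter, with summed signals of 2497 to 3648 in untreated and 3213 to 3616 in treated wild-type cells, and of 611 to 726 and 1670 to 1884 in the knockout. Tubb3 rose by 1.65 ± 0.18 and 3.31 ± 0.18 with MG132 but was lower in untreated knockout cells (-1.01 ± 0.18), where Uchl1 was higher. Map2 was lower in untreated knockout cells (-2.73 ± 0.11), with 0.04 ± 0.11 for MG132 in wild-type cells (adjusted p = 0.754) and a rise of 0.39 ± 0.11 in the knockout. Gfap rose in wild-type cells, from 48.6 ± 33.3 to 109 ± 37.6 (adjusted p = 0.0166), and gave a log2 difference of 0.83 ± 0.38 between untreated genotypes (adjusted p = 0.0731), while Rbfox3 (-0.07 ± 0.42 and -0.66 ± 0.42 with MG132) and Sox10 (0.29 ± 0.47 and 0.42 ± 0.47) passed no test. Their part in the Uchl1 result was not tested.

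Usp14, which trims ubiquitin chains while docked on the proteasome, read 10925, 10859, 10494 and 10661 in untreated wild-type cells and 13530.0, 13997, 13670.0 and 13166 in treated ones. In the knockout, Usp14 read 13019, 12649, 12754 and 12886 without and 17619, 15868, 17315 and 17830.0 with MG132. No group overlapped another between treatments or genotypes, and Usp14 rose by 0.34 ± 0.04, adjusted p = 3.42e-07, and 0.42 ± 0.04, adjusted p = 2.01e-08, respectively. Uchl5, the other proteasome-bound cysteine protease among the members, read 7734, 8069, 7532 and 9022 in untreated wild-type cells and 10254, 10654, 10183 and 10268 in treated ones. Its knockout signals were 7666, 8180.1, 7655 and 7433 without and 8269, 8170.1, 8590.5 and 8100.5 with MG132. Uchl5 rose in wild-type cells (0.36 ± 0.05, adjusted p = 3.01e-06), whereas the knockout change of 0.10 ± 0.05 had an adjusted p of 0.093, with overlapping groups, and the difference between responses was -0.26 ± 0.07, adjusted p = 0.00971. Uchl5 passed the test for the knockout response without any 1 of WT untreated 4 or KO untreated 2 (0.10 to 0.13, adjusted p 0.0477 to 0.0479). Averaging all probe sets of Usp14 turned its genotype difference with MG132 from 0.33 to -0.03.

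Usp5, which takes apart unanchored ubiquitin chains, moved the other way. It read 3068, 3196, 2991 and 3420.2 in untreated wild-type cells and 2536, 2337, 2297 and 2207 in treated ones, and all treated signals lay below the untreated ones. In the knockout, Usp5 read 3569.6, 3598, 3630.0 and 3747 without and 3289, 3794, 3927 and 3977 with MG132, with overlap. Usp5 fell in wild-type cells by 0.43 ± 0.06 (adjusted p = 3.47e-06) and its knockout change was upward and did not pass (0.04 ± 0.06, adjusted p = 0.602); the responses differed by 0.47 ± 0.09, adjusted p = 0.000412. With MG132 the knockout was higher by 0.67 ± 0.06, adjusted p = 1.03e-08. Usp13, its closest relative, gave signals between 61.4 and 153 over the 16 arrays and passed no test (log2 changes of 0.13 and -0.24).

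**Figure D2:**
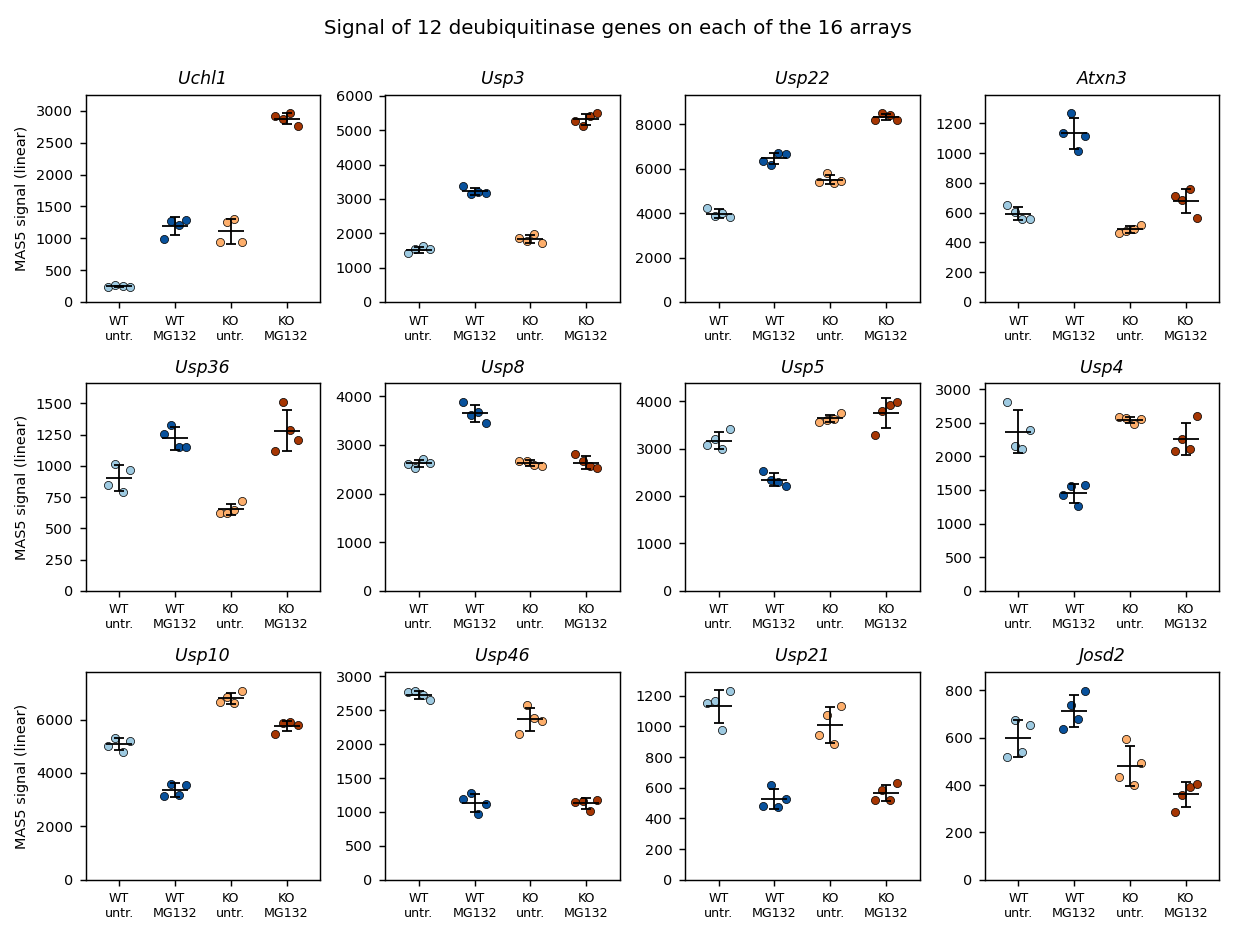
MAS5 signal (y axis, linear, from 0) of 12 members on each array, by group (x axis: wild-type, WT, and knockout, KO, untreated and with MG132). Points are arrays, and bars give the mean ± SD of 4 arrays. Uchl1 and Usp3 are highest in treated knockout cells, Usp46 and Usp21 are low in both treated groups, and Usp8 is raised in treated wild-type cells alone among its groups.

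Genes acting in quality control at the endoplasmic reticulum (ER) and mitochondria split: of 7 tested, 3 rose and 2 fell in wild-type cells, and 3 rose and 3 fell in the knockout. Atxn3, a chain-trimming partner of the p97 ATPase in ER-associated degradation, read 649, 603, 558 and 559 in untreated wild-type cells and 1133, 1267, 1015 and 1115 in treated ones. In the knockout, Atxn3 read 465, 480.1, 489 and 519.8 without and 709.6, 685, 759 and 566 with MG132. Treated signals lay above untreated ones in each genotype, and Atxn3 rose by 0.92 ± 0.09, adjusted p = 3.48e-08, in wild-type and 0.46 ± 0.09, adjusted p = 0.00025, in knockout cells. The knockout response was smaller (-0.46 ± 0.13, adjusted p = 0.0128) and the treated level lower (-0.73 ± 0.09, adjusted p = 1.21e-06). Atxn3 no longer passed the test for the untreated genotype difference without any 1 of WT untreated 1 or KO untreated 1 (-0.25 to -0.22, adjusted p 0.0521 to 0.0611).

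Josd2, the other Josephin gene tested, read 520.0, 675, 541 and 655 in untreated wild-type cells and 638, 738, 680.2 and 797 in treated ones. In the knockout, Josd2 read 434, 594, 402 and 491 without and 288, 359, 391 and 403 with MG132. Treated knockout signals all lay below those of treated wild-type cells, a difference of -0.96 ± 0.13, adjusted p = 2.22e-06. Its wild-type change of 0.25 ± 0.13 did not pass (adjusted p = 0.0959), it fell in the knockout (-0.40 ± 0.13, adjusted p = 0.0119), and the responses differed by -0.65 ± 0.18, adjusted p = 0.0113. With median centring the wild-type value became 0.46 and passed, and the knockout value became -0.25 and did not. Josd2 no longer passed the test for the knockout response without any 1 of KO untreated 2 or KO MG132 1 (-0.30 to -0.29, adjusted p 0.0555 to 0.0589). Josd2 no longer passed the test for the untreated genotype difference without any 1 of WT untreated 2, WT untreated 4, KO untreated 1, KO untreated 3, KO untreated 4, WT MG132 2, WT MG132 3 or KO MG132 2 (-0.33 to -0.23, adjusted p 0.053 to 0.158).

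Usp33 and Usp20 are related enzymes that act on receptors and on the von Hippel-Lindau pathway. Usp33 read 2701, 2447, 2515 and 2494 in untreated wild-type cells and 3749.9, 4051, 3878 and 4176 in treated ones. In the knockout, Usp33 read 2137, 2211, 2066 and 2222 without and 3552, 3592, 3696 and 3539.9 with MG132. It rose without overlap by 0.64 ± 0.05, adjusted p = 4.55e-10, and 0.73 ± 0.05, adjusted p = 6.93e-11. Usp20 read 542, 550.4, 457 and 546 in untreated wild-type cells and 372, 394, 299 and 440.5 in treated ones. In the knockout, Usp20 read 722, 984, 815 and 796 without and 555, 678, 611 and 637 with MG132. Usp20 fell in both genotypes (-0.47 ± 0.12, adjusted p = 0.00138; -0.41 ± 0.12, adjusted p = 0.00463) and was higher in knockout cells by 0.64 ± 0.12 untreated and 0.71 ± 0.12 with MG132, with no overlap between genotypes. Averaging all Usp20 probe sets, some of them below the filter on low signals, ended all 4 calls. The other Usp20 set above the filter gave -0.14 and -0.12 with MG132, and 0.53 and 0.56 between genotypes. Usp33 no longer passed the test for the genotype difference with MG132 without WT MG132 4 (-0.11, adjusted p = 0.0712).

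Usp19, an enzyme anchored in the ER membrane, read 1258, 1199.6, 1095 and 1186 in untreated wild-type cells and 1479, 1641, 1556 and 1701 in treated ones. In the knockout, Usp19 read 1463, 1686, 1473 and 1367 without and 2153, 2353, 2446 and 2305 with MG132. It rose in both (0.42 ± 0.07 and 0.63 ± 0.07, adjusted p = 2.06e-05 and 1.35e-07), and neither call held without suffixed probe sets, those whose name marks probes that may match more than 1 transcript or gene (0.40 and 0.42). The unsuffixed Usp19 set had low signals, with group means of 50.6 to 87.6. Another suffixed set above the filter gave 0.41 and 0.37. Averaging all Usp19 sets, with some below the filter, gave 0.31 in the knockout, which did not pass (adjusted p = 0.121). Usp25, which counteracts ER-associated degradation, read 2157, 1782, 1592 and 2044 in untreated wild-type cells and 1103, 1335, 1400.0 and 1416 in treated ones. In the knockout, Usp25 read 1709, 1967, 1613 and 1572 without and 1143, 1182, 1277 and 1270.5 with MG132. Usp25 fell in each (-0.52 ± 0.10 and -0.48 ± 0.10, adjusted p = 7.98e-05 and 0.000181), and the genotypes overlapped. Averaged with its other probe set, which lay below the filter on low signals, its wild-type change was -0.08 and did not pass. Usp30, an enzyme of the outer mitochondrial membrane that opposes the removal of mitochondria, read 741, 716, 825 and 817 in untreated wild-type cells and 883, 790.3, 760.2 and 752 in treated ones. In the knockout, Usp30 read 971, 1011, 1042 and 1004 without and 1057, 1069, 1086 and 1228 with MG132. Its changes with MG132 did not pass (0.04 ± 0.07 and 0.14 ± 0.07, adjusted p = 0.679 and 0.119), while knockout signals exceeded wild-type ones at both treatments (0.37 ± 0.07 and 0.47 ± 0.07, adjusted p = 0.00025 and 1.68e-05).

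Of the 8 tested chromatin genes, 5 rose and 2 fell in wild-type cells, and 4 rose and 2 fell in the knockout. As for the other roles, these counts were not tested against the shares of all genes given above. Usp3, a deubiquitinase of histones H2A and H2B, read 1414, 1540.1, 1622 and 1529 in untreated wild-type cells and 3365, 3157, 3199 and 3173 in treated ones. In the knockout, Usp3 read 1869, 1781, 1980.5 and 1722 without and 5262, 5136, 5417 and 5492 with MG132. No group overlapped another, and the lowest treated knockout signal exceeded the highest treated wild-type one. Usp3 rose by 1.07 ± 0.05, adjusted p = 8.76e-13, in wild-type and by 1.53 ± 0.05, adjusted p = 4.51e-15, in knockout cells, the largest rise of any member there, with a difference between responses of 0.46 ± 0.08, adjusted p = 0.000164. Usp22, the deubiquitinase of the SAGA transcription complex, read 4249.9, 3880.3, 3991 and 3813 in untreated wild-type cells and 6332, 6195, 6698 and 6652 in treated ones. In the knockout, Usp22 read 5395, 5794, 5368 and 5472 without and 8219, 8499, 8420.5 and 8202 with MG132. All treated signals lay above all untreated ones and all knockout signals above the wild-type ones at the same treatment. Usp22 rose by 0.70 ± 0.04, adjusted p = 3.43e-11, and 0.60 ± 0.04, adjusted p = 4.38e-10, and was higher in the knockout by 0.47 ± 0.04 untreated and 0.37 ± 0.04 with MG132.

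Usp36 is a nucleolar enzyme. Usp36 read 843, 1015, 788 and 969 in untreated wild-type cells and 1251, 1330.2, 1148 and 1147 in treated ones. In the knockout, Usp36 read 625, 625, 645 and 719 without and 1118, 1508, 1290.2 and 1209 with MG132. The untreated knockout signals lay below the wild-type ones and the treated signals of both genotypes overlapped. Usp36 rose by 0.43 ± 0.10, adjusted p = 0.000521, in wild-type and 0.95 ± 0.10, adjusted p = 3.09e-08, in knockout cells, and the responses differed by 0.52 ± 0.13, adjusted p = 0.00643. The untreated level was lower in the knockout (-0.45 ± 0.10, adjusted p = 0.00041), but a different Usp36 probe set above the filter gave 0.32 for that comparison, and the mean over all its probe sets gave -0.04. The same averaging took the difference between responses to 0.15 (adjusted p = 0.452). Bap1, a tumour suppressor that removes ubiquitin from H2A, read 4562, 4539, 4152 and 4479.7 in untreated wild-type cells and 5528, 5682, 5628 and 5671 in treated ones. In the knockout, Bap1 read 4944, 5299, 4766 and 5465 without and 6225, 6724, 6448 and 6807 with MG132. Bap1 rose in both genotypes (0.34 ± 0.05, adjusted p = 3.69e-06; 0.36 ± 0.05, adjusted p = 2.58e-06). Without suffixed probe sets its changes were 0.05 and 0.19 and passed in neither.

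Usp21, another H2A deubiquitinase, was among the members that fell most. It read 1153, 1169, 979 and 1230.4 in untreated wild-type cells and 484, 616, 475 and 529.7 in treated ones. In the knockout, Usp21 read 943, 1076, 883 and 1134 without and 522, 588, 520.1 and 628 with MG132. Treated signals of both genotypes lay below all untreated signals, and the genotypes overlapped at each treatment. Usp21 fell by 1.09 ± 0.10 (adjusted p = 1.14e-08) in wild-type and by 0.82 ± 0.10 (adjusted p = 7.39e-07) in knockout cells. Usp42, which removes ubiquitin from H2B and p53, also fell in both (-0.36 ± 0.07, adjusted p = 9.43e-05; -0.45 ± 0.07, adjusted p = 5.62e-06), but with median centring the wild-type change was -0.15 and did not pass. Usp16, an H2A deubiquitinase needed in mitosis, rose in wild-type cells (0.22 ± 0.07, adjusted p = 0.01) but did not pass in the knockout (0.08 ± 0.07, adjusted p = 0.31), and a Usp16 probe set without a suffix gave -0.45 in wild-type cells. Usp49, an H2B enzyme, passed no test, with signals from 256 to 577. Usp42 no longer passed the test for the genotype difference with MG132 without any 1 of WT untreated 3, WT untreated 4, KO untreated 1, KO untreated 2, KO untreated 3, KO untreated 4, WT MG132 2, WT MG132 4, KO MG132 1 or KO MG132 3 (0.12 to 0.16, adjusted p 0.0502 to 0.154). Usp16 no longer passed the test for the genotype difference with MG132 without any 1 of WT MG132 2, WT MG132 3, KO MG132 2, KO MG132 3 or KO MG132 4 (-0.18 to -0.16, adjusted p 0.0515 to 0.0843).

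Of 12 tested genes linked to p53 and DNA repair, 4 rose and 3 fell in wild-type cells, and 6 rose and 1 fell in the knockout. Usp10, which stabilises p53 and binds the stress granule protein G3BP1, read 5009, 5299, 4801 and 5199 in untreated wild-type cells and 3124, 3594, 3179 and 3557 in treated ones. In the knockout, Usp10 read 6651, 6859, 6612 and 7069.6 without and 5469, 5883, 5899 and 5785 with MG132. The 4 groups did not overlap, with treated wild-type cells lowest and untreated knockout cells highest. Usp10 fell in wild-type cells by 0.59 ± 0.05 (adjusted p = 3.83e-09) and less in the knockout (-0.24 ± 0.05, adjusted p = 0.000483; difference between responses 0.35 ± 0.07, adjusted p = 0.00118). The knockout fall became -0.10 with median centring and did not pass. Usp4, a relative of Usp15 that acts on spliceosome proteins and growth factor receptors, read 2804, 2161, 2111 and 2389 in untreated wild-type cells and 1426, 1551, 1264 and 1567 in treated ones. In the knockout, Usp4 read 2581, 2565, 2479.8 and 2552 without and 2078, 2257, 2109 and 2597 with MG132. Treated wild-type signals all lay below every other signal of Usp4. It fell in wild-type cells (-0.69 ± 0.09, adjusted p = 6.45e-07), its knockout change was -0.18 ± 0.09, adjusted p = 0.0873, and the responses differed by 0.52 ± 0.12, adjusted p = 0.00334. Usp4 passed the test for the knockout response without any 1 of WT untreated 1 or KO MG132 4 (-0.24 to -0.18, adjusted p 0.0219 to 0.0458). Usp4 passed the test for the untreated genotype difference without WT untreated 1 (0.20, adjusted p = 0.0442).

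Usp7, which removes ubiquitin from MDM2 and p53, read 5933, 5814, 5640.4 and 5556 in untreated wild-type cells and 4854, 5498, 5152 and 5331 in treated ones. In the knockout, Usp7 read 5236, 5797, 5888 and 5629.6 without and 6078, 6761, 6207 and 5685 with MG132. The wild-type groups did not overlap and the knockout groups did, with small changes of -0.14 ± 0.05, adjusted p = 0.032, and 0.13 ± 0.05, adjusted p = 0.0435. The responses differed by 0.27 ± 0.08, adjusted p = 0.0122, but the wild-type direction turned with median centring, as given above. Usp7 no longer passed the test for the wild-type response without any 1 of WT untreated 1, WT untreated 2, WT MG132 1 or WT MG132 3 (-0.14 to -0.11, adjusted p 0.0625 to 0.117). Usp7 no longer passed the test for the knockout response without any 1 of WT untreated 2, KO untreated 1, KO untreated 4, KO MG132 1, KO MG132 2 or KO MG132 3 (0.09 to 0.14, adjusted p 0.0503 to 0.179). Usp1, which acts on PCNA and FANCD2 in DNA repair, read 19488, 21299, 23280.0 and 20172 in untreated wild-type cells and 22051, 22107, 23278 and 21676 in treated ones. In the knockout, Usp1 read 17394, 15256, 18434 and 15162 without and 16307, 16664, 15699 and 14015 with MG132. MG132 groups overlapped in both genotypes (0.08 ± 0.07, adjusted p = 0.291; -0.08 ± 0.07, adjusted p = 0.332), while knockout cells were lower both untreated (-0.35 ± 0.07, adjusted p = 0.000181) and with MG132 (-0.51 ± 0.07, adjusted p = 1.74e-06).

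Usp28, a partner of the damage protein 53BP1 and a stabiliser of MYC, read 612, 622, 619 and 574 in untreated wild-type cells and 808, 851, 999 and 721 in treated ones. In the knockout, Usp28 read 785, 879, 956 and 829 without and 1054, 1016, 1045 and 1043 with MG132. It rose in both genotypes without overlap (0.46 ± 0.09, adjusted p = 0.000109; 0.27 ± 0.09, adjusted p = 0.0107) and was higher in the knockout when untreated (0.49 ± 0.09, adjusted p = 6.61e-05). Usp48 read 2122, 2130.4, 2116 and 2073 in untreated wild-type cells and 2080.1, 2214, 2182 and 2134 in treated ones. In the knockout, Usp48 read 1402, 1348, 1422 and 1453 without and 1649.6, 1516, 1793 and 1646 with MG132. All its knockout signals lay below all its wild-type ones (-0.58 ± 0.05 untreated and -0.38 ± 0.05 with MG132, adjusted p = 1.54e-08 and 4.68e-06). Its knockout rise of 0.23 ± 0.05, adjusted p = 0.00113, went to -0.05 when all its probe sets were averaged. Usp48 passed the test for the difference between responses without KO MG132 2 (0.24, adjusted p = 0.0241).

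Otud3 rose in both genotypes (0.56 ± 0.08, adjusted p = 1.8e-06; 0.48 ± 0.08, adjusted p = 1.34e-05) and was lower in knockout cells at both treatments (-0.52 and -0.59). Usp47, which acts on DNA polymerase beta, rose in wild-type cells (0.23 ± 0.05, adjusted p = 0.000183; knockout 0.00 ± 0.05; difference -0.23 ± 0.07, adjusted p = 0.0105). Averaging all its probe sets gave 0.15 in wild-type cells and a difference of -0.13, neither of which passed (adjusted p = 0.106 and 0.418). Otud4 rose in wild-type cells (0.31 ± 0.10, adjusted p = 0.0126), with signals of 5715 to 7712 against 6710 to 9282, and gave -0.06 ± 0.10 in the knockout. Otud4 no longer passed the test for the wild-type response without any 1 of WT untreated 2, WT untreated 3 or WT MG132 3 (0.24 to 0.25, adjusted p 0.0503 to 0.0578). Otud4 passed the test for the difference between responses without any 1 of WT untreated 1, WT MG132 2 or KO MG132 1 (-0.45 to -0.41, adjusted p 0.0179 to 0.0489). Otud4 no longer passed the test for the untreated genotype difference without any 1 of WT untreated 2 or WT untreated 3 (0.25 to 0.26, adjusted p 0.0519 to 0.0534). Usp45, a partner of the repair nuclease ERCC1, rose in knockout cells (0.27 ± 0.05, adjusted p = 0.000165), with 0.05 ± 0.05 in wild-type cells and a difference of 0.22 ± 0.07, adjusted p = 0.0336. Usp45 no longer passed the test for the difference between responses without any 1 of WT untreated 1, KO untreated 1, KO untreated 4, WT MG132 1, WT MG132 2, WT MG132 3, KO MG132 2, KO MG132 3 or KO MG132 4 (0.17 to 0.21, adjusted p 0.0525 to 0.0803). Otud6b rose in the knockout (0.14 ± 0.05, adjusted p = 0.0134), while its wild-type value of -0.01 ± 0.05 went to 0.20 with median centring. Otud6b no longer passed the test for the knockout response without KO untreated 2 (0.11, adjusted p = 0.0557). Otub1, which also blocks ubiquitin-conjugating enzymes without cutting, passed the test for MG132 in neither genotype (-0.14 ± 0.09 and -0.08 ± 0.09, adjusted p = 0.187 and 0.444) and was higher in the knockout (0.33 and 0.38). Otub1 passed the test for the wild-type response without WT untreated 1 (-0.28, adjusted p = 8.7e-05). Otub1 passed the test for the difference between responses without WT untreated 1 (0.19, adjusted p = 0.0416).

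Among the 6 tested members of NF-kB and innate immune signalling, 4 rose and 1 fell in wild-type cells, and 2 rose and 1 fell in the knockout. Cyld, a tumour suppressor that removes ubiquitin chains from NF-kB activators, read 5047, 4915, 4955 and 4638 in untreated wild-type cells and 4270.1, 4099, 4364 and 3619.5 in treated ones. In the knockout, Cyld read 5737, 5473, 5358 and 5534 without and 3596, 4088, 4032 and 3522 with MG132. Treated signals lay below untreated ones in both genotypes. Cyld fell in wild-type (-0.26 ± 0.06, adjusted p = 0.000811) and more in knockout cells (-0.54 ± 0.06, adjusted p = 1.55e-07; difference -0.28 ± 0.09, adjusted p = 0.0188). The wild-type fall was -0.06 with median centring and did not pass. Cyld no longer passed the test for the untreated genotype difference without any 1 of WT untreated 4 or KO untreated 1 (0.15 to 0.16, adjusted p 0.0525 to 0.06). Cyld passed the test for the genotype difference with MG132 without WT MG132 4 (-0.16, adjusted p = 0.0246).

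Otud7b (Cezanne), a negative regulator of NF-kB, read 1746, 2131, 2039 and 2096 in untreated wild-type cells and 2102, 2207, 1764 and 2170.4 in treated ones. In the knockout, Otud7b read 2550.1, 2553, 2458 and 2529 without and 2516, 2903, 2715 and 2739.7 with MG132. Its groups overlapped between treatments, and its response passed in neither genotype (0.04 ± 0.07, adjusted p = 0.658; 0.11 ± 0.07, adjusted p = 0.216); the mean over all its probe sets gave -0.44 in wild-type cells and passed. Knockout signals of Otud7b lay above the wild-type ones (0.33 ± 0.07 and 0.40 ± 0.07). Otub2 read 274, 348, 245 and 346 in untreated wild-type cells and 459, 471, 347 and 453 in treated ones. In the knockout, Otub2 read 489, 489.7, 499 and 508 without and 601, 623, 573 and 567 with MG132. Otub2 was higher in untreated knockout cells by 0.70 ± 0.12, adjusted p = 3.65e-05, rose in wild-type cells with WT MG132 3 just below the highest untreated array (0.50 ± 0.12, adjusted p = 0.000928), and gave 0.24 ± 0.12, adjusted p = 0.0768, in the knockout, which passed with quantile normalisation and with median centring.

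Otud1, an interferon and NF-kB regulator, read 1740.3, 1254, 1196 and 1328 in untreated wild-type cells and 1779.5, 2197, 1775 and 1895 in treated ones. In the knockout, Otud1 read 919.7, 1098, 976 and 1067 without and 1109.7, 1160.2, 1459.6 and 1023 with MG132. It rose in wild-type cells (0.48 ± 0.11, adjusted p = 0.00103) and was lower in knockout cells untreated (-0.42 ± 0.11) and with MG132 (-0.69 ± 0.11). Otud1 passed the test for the knockout response without KO MG132 4 (0.28, adjusted p = 0.0491). Otud1 passed the test for the difference between responses without WT untreated 1 (-0.38, adjusted p = 0.0491). Usp38 read 871, 633, 569 and 675 in untreated wild-type cells and 808, 883, 828 and 916 in treated ones. In the knockout, Usp38 read 405, 398, 392 and 369.9 without and 495, 493, 474 and 453 with MG132. Every knockout signal of Usp38 lay below every wild-type one at either treatment (-0.77 ± 0.10 and -0.82 ± 0.10, adjusted p = 2.17e-06 and 8.31e-07), and it rose in both genotypes (0.33 ± 0.10 and 0.28 ± 0.10). Usp38 no longer passed the test for the knockout response without any 1 of KO untreated 4 or KO MG132 1 (0.25 to 0.26, adjusted p 0.0509 to 0.0591). Usp15, the relative of Usp4, rose slightly in both (0.16 ± 0.05, adjusted p = 0.00802; 0.18 ± 0.05, adjusted p = 0.00408), and the knockout value was -0.28 without suffixed probe sets.

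Of 7 tested genes acting on endosomes and receptors, 2 rose and 3 fell in wild-type cells, and 4 rose and 2 fell in the knockout. Usp46, an enzyme switched on by WDR48 and known from worms for acting on glutamate receptors, read 2764, 2784, 2728 and 2651 in untreated wild-type cells and 1195, 1274, 966 and 1112 in treated ones. In the knockout, Usp46 read 2154, 2580.1, 2387 and 2346 without and 1153, 1159.9, 1009.9 and 1177 with MG132. Treated signals of the genotypes overlapped, and all lay below every untreated signal. Usp46 fell more than any other member, by 1.26 ± 0.08 (adjusted p = 1.49e-11) in wild-type and 1.06 ± 0.08 (adjusted p = 2.34e-10) in knockout cells. Usp46 no longer passed the test for the untreated genotype difference without any 1 of WT untreated 2, KO untreated 1 or KO untreated 4 (-0.20 to -0.16, adjusted p 0.0517 to 0.0983). Its close relative Usp12 fell as well (-0.25 ± 0.09, adjusted p = 0.0201; -0.41 ± 0.09, adjusted p = 0.00043), but the wild-type value was -0.04 with median centring. Usp12 no longer passed the test for the wild-type response without any 1 of WT untreated 3, WT untreated 4, WT MG132 3 or WT MG132 4 (-0.23 to -0.20, adjusted p 0.0533 to 0.0759).

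Usp8, which acts with STAM proteins on internalised receptors, read 2606, 2535, 2709.9 and 2624 in untreated wild-type cells and 3877, 3612, 3676 and 3449 in treated ones. In the knockout, Usp8 read 2674, 2671, 2578 and 2564 without and 2809.6, 2662, 2560.1 and 2517 with MG132. Treated wild-type signals stood above those of the other 3 groups, which overlapped. Usp8 rose in wild-type cells (0.48 ± 0.05, adjusted p = 4.52e-08), gave 0.01 ± 0.05, adjusted p = 0.908, in the knockout, and differed between responses by -0.47 ± 0.07, adjusted p = 4.83e-05. The mean over its probe sets gave -0.30 in the knockout, and the difference between responses remained past the test. Stambp (AMSH), a metalloprotease for K63-linked chains at endosomes, read 1224, 1298, 1377 and 1188 in untreated wild-type cells and 1963, 1707, 1944 and 1761 in treated ones. In the knockout, Stambp read 1468, 1351, 1451 and 1353 without and 1613, 1669, 1682 and 1535 with MG132. Stambp rose in both genotypes without overlap (0.53 ± 0.06, adjusted p = 4.23e-07; 0.21 ± 0.06, adjusted p = 0.00865), with a smaller knockout response (-0.32 ± 0.09, adjusted p = 0.0112). Stambp passed the test for the untreated genotype difference without WT untreated 3 (0.18, adjusted p = 0.028). Stambp no longer passed the test for the genotype difference with MG132 without any 1 of WT MG132 1, WT MG132 3 or KO MG132 4 (-0.15, adjusted p 0.0707 to 0.0759).

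Stambpl1, its relative, read 1439.7, 1427, 1483 and 1464 in untreated wild-type cells and 1398, 1228, 1333 and 1288 in treated ones. In the knockout, Stambpl1 read 2159, 1810.4, 2131 and 1903 without and 2501, 2196, 2135 and 2136 with MG132. All knockout signals lay above all wild-type ones (0.45 ± 0.07 and 0.76 ± 0.07, adjusted p = 9.05e-06 and 5.83e-09). Without suffixed probe sets the untreated difference was 0.09 and did not pass (adjusted p = 0.646), while that with MG132 (0.35) still passed. Its response was -0.15 ± 0.07, adjusted p = 0.0631, in wild-type and 0.16 ± 0.07, adjusted p = 0.0408, in knockout cells, with a difference of 0.31 ± 0.10, adjusted p = 0.0184, and the knockout value turned to -0.53 without suffixed probe sets. Stambpl1 passed the test for the wild-type response without any 1 of WT MG132 1 or KO MG132 1 (-0.18 to -0.15, adjusted p 0.0387 to 0.0461). Stambpl1 no longer passed the test for the knockout response without any 1 of KO untreated 2, KO untreated 4, KO MG132 1 or KO MG132 2 (0.11 to 0.17, adjusted p 0.0542 to 0.168). Usp2, an enzyme with a circadian rhythm in many tissues, read 338, 366, 333 and 385 in untreated wild-type cells and 273, 247, 338 and 403 in treated ones. In the knockout, Usp2 read 200.3, 168, 165 and 172 without and 280.2, 315, 298 and 219.9 with MG132. Untreated knockout signals lay below all others. Usp2 was lower there (-0.95 ± 0.15, adjusted p = 1.47e-05), rose with MG132 in the knockout (0.61 ± 0.15, adjusted p = 0.0013) and gave -0.19 ± 0.15, adjusted p = 0.285, in wild-type cells, with a difference of 0.79 ± 0.21, adjusted p = 0.00716. Usp32 fell in wild-type (-0.29 ± 0.05, adjusted p = 5.22e-05) and rose in knockout cells (0.16 ± 0.05, adjusted p = 0.011), a difference of 0.46 ± 0.07, adjusted p = 0.000117; the wild-type fall was -0.09 with median centring and 0.00 over all its probe sets.

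Of the members grouped with RNA processing or long classed as lacking catalytic activity, Usp39, a splicing factor, rose by 0.11 ± 0.04 and 0.18 ± 0.04 (adjusted p = 0.0244 and 0.000909) and was higher in the knockout. Usp39 no longer passed the test for the wild-type response without any 1 of WT untreated 4, WT MG132 1 or WT MG132 3 (0.08 to 0.11, adjusted p 0.0506 to 0.0995). Usp53, a protein of cell junctions, read 892, 638, 438 and 419 in untreated wild-type cells and 968, 1193, 1357 and 1112 in treated ones. In the knockout, Usp53 read 1083, 635, 766 and 846 without and 1809, 1462, 1687 and 1257 with MG132. Usp53 rose without overlap in both (0.99 ± 0.19, adjusted p = 0.000126; 0.90 ± 0.19, adjusted p = 0.000368). Usp53 no longer passed the test for the untreated genotype difference without any 1 of WT untreated 3, WT untreated 4, KO untreated 1 or KO untreated 4 (0.37 to 0.49, adjusted p 0.0586 to 0.121). Usp53 passed the test for the genotype difference with MG132 without any 1 of WT untreated 1, WT MG132 3 or KO MG132 4 (0.42 to 0.51, adjusted p 0.025 to 0.049). Usp54 read 872, 781, 853 and 776 in untreated wild-type cells and 754, 723, 763 and 636 in treated ones. In the knockout, Usp54 read 1173, 1167, 1094 and 1172 without and 1208, 1394, 1319 and 1154 with MG132. All knockout signals of Usp54 lay above all wild-type ones (0.48 ± 0.08 and 0.81 ± 0.08, adjusted p = 1.98e-05 and 1.79e-08). Its wild-type fall of -0.19 ± 0.08, adjusted p = 0.0387, became 0.02 with median centring, and the responses differed by 0.32 ± 0.11, adjusted p = 0.0309. Usp54 no longer passed the test for the wild-type response without any 1 of WT untreated 1, WT untreated 3, WT MG132 2 or WT MG132 4 (-0.19 to -0.13, adjusted p 0.0579 to 0.152). Usp54 no longer passed the test for the difference between responses without any 1 of WT untreated 1, WT untreated 3, KO untreated 3, WT MG132 4, KO MG132 2 or KO MG132 3 (0.27 to 0.30, adjusted p 0.0541 to 0.072).

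Of the 6 remaining tested members, 1 rose and 1 fell in wild-type cells, and 2 rose and 1 fell in the knockout. Usp40 read 1366, 1181, 1003 and 1199.5 in untreated wild-type cells and 575, 752, 584 and 739 in treated ones. In the knockout, Usp40 read 629.9, 761, 667 and 742 without and 427, 415, 401 and 432 with MG132. Treated knockout signals were the lowest, untreated wild-type ones the highest, and the other groups overlapped. Usp40 fell in both genotypes (-0.83 ± 0.10, adjusted p = 7.14e-07; -0.72 ± 0.10, adjusted p = 5.37e-06) and was lower in the knockout (-0.74 untreated and -0.63 with MG132). Usp31 rose in both (0.65 ± 0.11, adjusted p = 1.87e-05; 0.49 ± 0.11, adjusted p = 0.000425). Usp31 passed the test for the genotype difference with MG132 without any 1 of WT untreated 1 or WT MG132 1 (-0.29 to -0.23, adjusted p 0.0265 to 0.0359).

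Usp24 read 4312, 3382, 3604 and 3492 in untreated wild-type cells and 3517, 3534, 3848 and 3833 in treated ones. In the knockout, Usp24 read 2384, 2187, 2133 and 2222 without and 2526, 2504, 2787 and 2606 with MG132. All its knockout signals lay below all its wild-type ones (-0.72 ± 0.07 and -0.50 ± 0.07, adjusted p = 1.33e-08 and 2.16e-06), and it rose with MG132 in the knockout (0.22 ± 0.07, adjusted p = 0.00675; wild-type 0.00 ± 0.07). Usp24 passed the test for the difference between responses without WT untreated 2 (0.26, adjusted p = 0.0484). Usp34, an activator of WNT signalling through axin, and Usp37, an enzyme of the cell cycle, passed no test. Usp34 passed the test for the wild-type response without any 1 of WT untreated 2, WT untreated 3, KO untreated 1, WT MG132 3 or KO MG132 1 (-0.16 to -0.13, adjusted p 0.0318 to 0.0442). Usp34 passed the test for the difference between responses without any 1 of WT untreated 2, WT untreated 3, KO untreated 1 or WT MG132 3 (0.24 to 0.26, adjusted p 0.0212 to 0.0497). Usp34 passed the test for the genotype difference with MG132 without any 1 of WT untreated 1 or WT MG132 3 (0.12 to 0.15, adjusted p 0.0415 to 0.0473). Usp37 passed the test for the wild-type response without WT untreated 1 (0.43, adjusted p = 0.0163). Usp43, with signals of only 13.4 to 174, gave changes of 0.46 ± 0.38 and 0.88 ± 0.38 that did not pass (adjusted p = 0.3 and 0.0508). Usp43 passed the test for the knockout response without any 1 of WT untreated 4, KO untreated 2, KO untreated 3 or KO MG132 3 (0.88 to 1.11, adjusted p 0.0214 to 0.0483). Usp43 passed the test for the untreated genotype difference without KO untreated 1 (0.96, adjusted p = 0.00445). Usp43 passed the test for the genotype difference with MG132 without KO untreated 1 (0.84, adjusted p = 0.00553).

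The 5 members that were not tested lay below the array median on all 16 arrays. Usp18, which removes the ubiquitin-like ISG15 and is known as an interferon target, read 48.3, 49.8, 9.35 and 8.06 in untreated wild-type cells and 67.4, 70.0, 112 and 89.8 in treated ones. In the knockout, Usp18 read 27.7, 58.7, 66.4 and 41.4 without and 41.8, 31.0, 36.6 and 89.7 with MG132. Otud7a ranged from 18.1 to 69.7, Usp29 from 4.33 to 65.9, Usp44 from 3.26 to 61.1 and Usp50 from 1.84 to 47.4.

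The responses of the genotypes differed for 19 of the 54 members, 11 with a higher and 8 with a lower change in the knockout. Of all genes 28.2% differed, 14.1% in each direction. By family, with Cyld counted apart, 10 of 39 USP genes had a higher and 2 a lower knockout response. Both Josephin genes (Atxn3 and Josd2) and 2 of 3 UCH genes (Uchl1 and Uchl5) had lower ones. The 8 lower responses belonged to Atxn3, Cyld, Josd2, Stambp, Uchl1, Uchl5, Usp8 and Usp47, and the 11 higher ones to Stambpl1, Usp2, Usp3, Usp4, Usp5, Usp7, Usp10, Usp32, Usp36, Usp45 and Usp54. In 10 of the 19 the call held under every alternative run that tested the member. These were 4 higher responses (Usp2, Usp3, Usp5 and Usp10) and 6 lower ones (Atxn3, Josd2, Stambp, Uchl1, Uchl5 and Usp8). Averaging all probe sets ended the higher calls of Stambpl1, Usp4, Usp7, Usp32, Usp36 and Usp45 and the lower ones of Cyld and Usp47. It added higher calls for Otud7b and Usp48 and lower ones for Otub2, Otud4, Usp14 and Usp31. With median centring 8 were higher and 9 lower, so the higher share of member calls went from 57.9% to 47.1% and that of all gene calls from 50.1% to 38.3%.

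**Figure D3:**
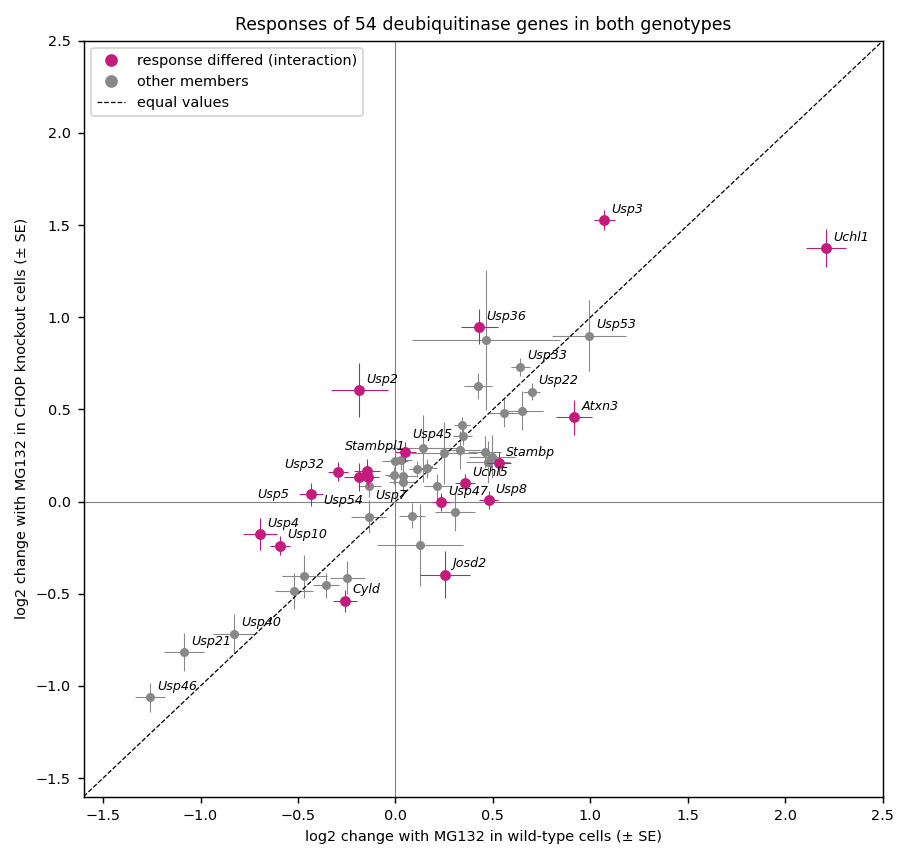
log2 change with MG132 in wild-type (x axis) and knockout cells (y axis), each ± SE, of the 54 tested members. Pink points are the 19 whose responses differed between genotypes, and the dashed line marks equal values. Uchl1 lies below and Usp3, Usp36 and Usp2 above the line, while Usp46, Usp21 and Usp40 lie near it.

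Between untreated cultures, 37 members differed, 21 higher and 16 lower in the knockout, and with MG132 36 did, 21 higher and 15 lower. All genes gave 55.3% (28.5% higher and 26.8% lower) and 58.6% (30.6% higher and 28.0% lower), so these counts were close to or somewhat above the background, and member medians of 0.03 and 0.05 lay beside 0.01 and 0.02 for all genes. At both treatments 18 members were higher in the knockout, 85.7% of each list, or 33.3% of members beside 19.6% of all genes. They included Uchl1, Usp3, Usp10, Usp14, Usp20, Usp22, Usp54 and Stambpl1, the last not passing untreated without suffixed probe sets. With all probe sets averaged, Usp14 gave -0.03 with MG132 and did not pass. Usp20 then gave 0.12 untreated and 0.15 with MG132 and passed in neither, with some of its sets below the filter. The 10 that were lower at both, 62.5% of the untreated and 66.7% of the treated list, made up 18.5% of members beside 18.3% of all genes. They were Atxn3, Josd2, Otud1, Otud3, Usp1, Usp24, Usp33, Usp38, Usp40 and Usp48. Usp32 was lower in untreated and higher in treated knockout cells (-0.29 and 0.17), but averaging all its probe sets gave -0.22 and -0.05, neither of which passed (adjusted p = 0.0667 and 0.66). Uchl5, Usp8, Usp16, Usp47 and Stambp were lower in the knockout with MG132 and showed no called difference untreated, and Usp4 and Usp7 were higher with MG132 in the same way.

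**Figure D4:**
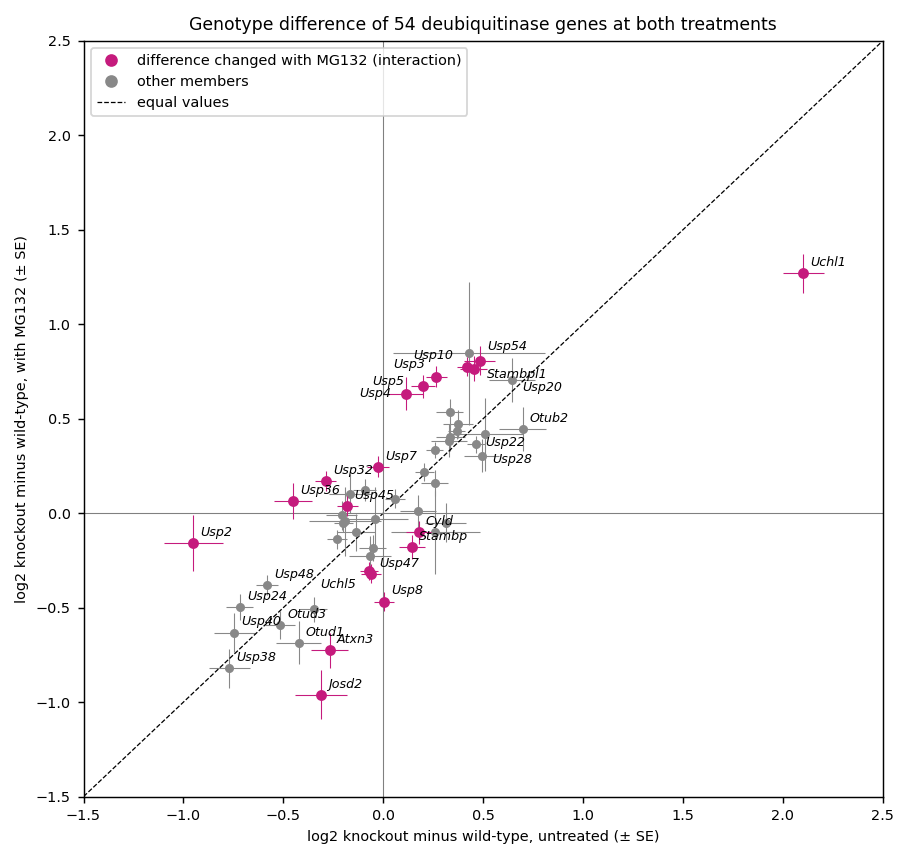
log2 knockout minus wild-type without (x axis) and with MG132 (y axis), each ± SE, of the 54 tested members. Pink points are the 19 whose genotype difference changed with MG132, and the dashed line marks equal values. Uchl1 stands apart on the right, and Josd2 and Usp38 lie lowest on the y axis.

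Of 13 pairs of relatives with both genes tested, 6 had opposite calls in wild-type cells: Usp4 fell and Usp15 rose, Usp25 fell and Usp28 rose, Usp20 fell and Usp33 rose, Usp42 fell and Usp36 rose, Usp54 fell and Usp53 rose, and Usp40 fell and Usp47 rose. That was 46.2% of the pairs, and 20% of all possible pairs of tested genes had opposite calls in wild-type cells. The falls of Usp42 and Usp54 did not pass with median centring. With all probe sets averaged, the wild-type calls of Usp15 (0.13), Usp20 (-0.20), Usp25 (-0.08), Usp42 (-0.06) and Usp47 (0.15) did not pass. Of the 6 pairs only Usp54 and Usp53 then kept opposite calls, while Stambpl1 fell (-0.47) beside the rise of Stambp. In the knockout 4 pairs were opposite (30.8%, beside 18.9% of all gene pairs), namely Usp25 and Usp28, Usp20 and Usp33, Usp42 and Usp36, and Usp21 and Usp2. Averaging there ended the calls of Usp20 (-0.17) and Usp42 (-0.36), while Otub1 (-0.20) and Otub2 (0.31) became opposite. Usp12 and Usp46 were the one pair of the 13 in which both fell in both genotypes. Averaged over its probe sets, Usp12 passed in neither genotype and its wild-type value turned to 0.19. Stambp and Stambpl1 had opposite differences between responses (-0.32 and 0.31), that of Stambpl1 not passing with median centring. Usp20 and Usp33 were also opposite between genotypes, Usp20 higher and Usp33 lower in the knockout at both treatments. Averaging all probe sets ended these calls of Usp20 as well.

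**Figure D5:**
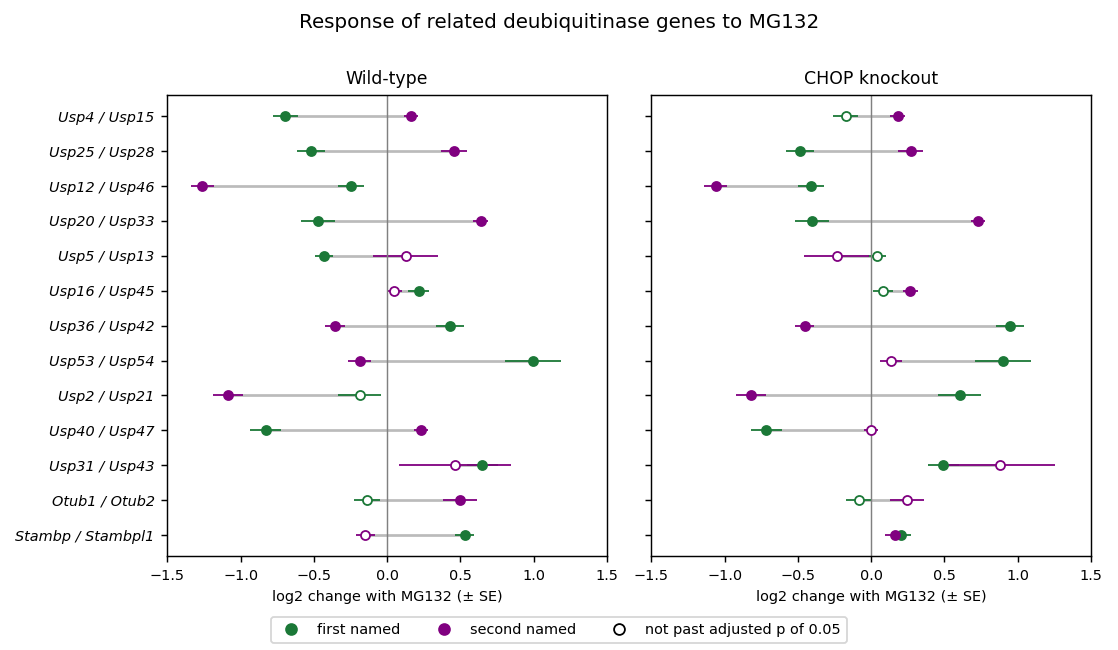
log2 change with MG132 (x axis, ± SE) of the 13 pairs of related members (y axis) in wild-type (left) and knockout cells (right). Green marks the first and purple the second gene named, filled points passed an adjusted p of 0.05, and grey lines join a pair. Usp20 and Usp33 stand on opposite sides of 0 in both panels, and Usp12 and Usp46 on the same side.

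Several genes had more than 1 usable probe set. In wild-type cells 27 of the called members had another probe set above the filter, and for 6 of them (Usp7, Usp12, Usp15, Usp16, Usp32 and Usp40) one had the opposite sign. In the knockout these were 4 of 25: Usp7, Usp15, Usp48 and Stambpl1. For the difference between responses they were 5 of 14 (Usp7, Usp32, Usp36, Usp45 and Usp47), for untreated genotypes 5 of 26 (Cyld, Otud7b, Usp14, Usp36 and Usp45), and with MG132 7 of 26 (Otub1, Usp7, Usp14, Usp16, Usp24, Usp32 and Usp48). Which transcripts these probe sets read was not tested.

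Genes related to deubiquitinases outside the member rule were read for comparison. Of 20 genes of deubiquitinase families or related to them, 10 rose and 6 fell in wild-type cells and 10 rose and 7 fell in the knockout. Their medians were 0.12 and 0.07, and not all of them encode active deubiquitinases. Of all genes, 27.1% rose and 36.8% fell in wild-type cells, and 25.7% rose and 36.7% fell in the knockout. The single genes of these lists given below were named after their values were seen and do not stand for their lists. Tnfaip3 (A20), an NF-kB inhibitor, rose by 0.97 ± 0.08 in wild-type and fell by 0.39 ± 0.08 in knockout cells, a difference of -1.37 ± 0.11 (adjusted p = 2.07e-08). Psmd14, the metalloprotease subunit of the proteasome lid, rose by 0.61 ± 0.05 and 0.42 ± 0.05, and Zup1, an enzyme for long K63-linked chains, by 0.92 ± 0.07 and 1.01 ± 0.07. Pan2, a deadenylase component with an inactive USP domain, fell by 1.05 ± 0.12 in wild-type and fell by 0.53 ± 0.12 in knockout cells. Among 11 proteases of SUMO, NEDD8 and UFM1, 4 rose and 5 fell in wild-type cells, and 3 rose and 4 fell in the knockout, with Ufsp1 at -1.14 ± 0.13 and -1.39 ± 0.13. Of 19 partner proteins, 4 rose and 7 fell in wild-type and 7 rose and 3 fell in knockout cells. Stam, the endosomal partner of Usp8 and Stambp, rose by 0.88 ± 0.05 and 0.98 ± 0.05, and Uimc1, which recruits the Brcc3 complex to damaged DNA, was lower in untreated knockout cells (-1.28 ± 0.05).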

How the data were processed

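RNA of 16 plates of mouse embryonic fibroblasts, 4 in each of 4 groups taken from the labels, was measured on 1-colour Affymetrix arrays. The authors deposited linear signal intensity per probe set, made with MAS5 per the submitters' processing notes. Its version is not named in these notes. On each array the mean after trimming 2% at each end was 1000, as found in the values. Of 45101 probe sets, 34945 named a single gene, and each gene was represented by the one with the highest mean. Genes above the array median on at least 4 of 16 arrays were tested on log2(signal + 16) with limma 3.58.1 in R 4.3.3 (lmFit on 4 group means, eBayes with trend), in 5 contrasts with Benjamini-Hochberg adjustment over 11457 genes at 0.05. The fit was tested on simulated data, with 50 genes changed at each of several log2 sizes. It recovered 14 of 50 changes of 0.25, 37 of 0.5, 44 of 1 and 50 of 2. Far fewer genes changed there than were called in the data, so these rates do not carry over directly. A change that did not pass is not shown to be absent. The number of arrays limits the precision.

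The members, the gene lists and the tests were chosen with earlier results of these data known. Every array is given for members with the 5 largest rises and falls in each contrast, the 6 largest differences between responses, and a list of defining members. Alternatives were quantile normalisation, median centring, pseudocounts of 1 and 64, other filters, other probe set rules, other models, a replicate block and leaving out each array. The mean over all probe sets of a gene included sets below the filter on low signals. Groups shared replicate numbers, and same-numbered arrays of different groups correlated at -0.07 to 0.16 in their deviations from the group means. Of the 16 arrays, 8 correlated best with their own number. The main fit did not use the number, and whether it marks a shared batch was not tested.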

Additional observations from a re-analysis of the deposited data

Results flagged for a closer look

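In 9 of 216 sets of 4 arrays, 1 array stood far from the other 3 by Dixon's test, where chance gives about 1 in 20. Otub1 read 1775 on WT untreated 1, beside 2556 to 2662 on the others. Otub2 read 346.6 on WT MG132 3, beside 453.4 to 471.3 on the others. Otud3 read 1522 on WT MG132 4, beside 1592 to 1604 on the others. Usp20 read 456.9 on WT untreated 3, beside 541.8 to 550.4 on the others. Usp32 read 3884 on KO untreated 3, beside 4172 to 4184 on the others. Usp34 read 6663 on WT untreated 1, beside 5715 to 5866 on the others. Usp37 read 534.9 on KO untreated 1, beside 483.7 to 485.6 on the others. Usp46 read 1010.0 on KO MG132 3, beside 1153 to 1177 on the others. Usp54 read 1094 on KO untreated 3, beside 1167 to 1173 on the others.

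The response to MG132 differed between genotypes, by the interaction term in limma, for 19 members, given as the knockout minus the wild-type log2 change. Larger knockout values were found for Stambpl1 0.31 (adjusted p = 0.0184), Usp10 0.35 (adjusted p = 0.00118), Usp2 0.79 (adjusted p = 0.00716), Usp3 0.46 (adjusted p = 0.000164), Usp32 0.46 (adjusted p = 0.000117), Usp36 0.52 (adjusted p = 0.00643), Usp4 0.52 (adjusted p = 0.00334), Usp45 0.22 (adjusted p = 0.0336), Usp5 0.47 (adjusted p = 0.000412), Usp54 0.32 (adjusted p = 0.0309) and Usp7 0.27 (adjusted p = 0.0122). Smaller ones were found for Atxn3 -0.46 (adjusted p = 0.0128), Cyld -0.28 (adjusted p = 0.0188), Josd2 -0.65 (adjusted p = 0.0113), Stambp -0.32 (adjusted p = 0.0112), Uchl1 -0.83 (adjusted p = 0.000252), Uchl5 -0.26 (adjusted p = 0.00971), Usp47 -0.23 (adjusted p = 0.0105) and Usp8 -0.47 (adjusted p = 4.83e-05).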

How the results depend on the processing

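The numbers of members called stayed within 1.5 times under every alternative run. Leaving out 1 array gave 35 to 40 calls and a median change of 0.11 to 0.16 for MG132 in wild-type cells, 31 to 37 and 0.15 to 0.18 in the knockout, 17 to 21 and 0.04 to 0.07 for the difference between responses, 33 to 37 and 0.015 to 0.10 between untreated genotypes, and 34 to 39 and 0.00 to 0.09 between treated ones; the 0.10 came without WT untreated 1. Median centring moved the member median to 0.34 in wild-type cells, 0.31 in the knockout and 0.10 between untreated genotypes. Without suffixed probe sets (49 members) it was 0.051 in wild-type cells and 0.12 between treated genotypes, and averaging all probe sets gave -0.038 for the difference between responses and -0.053 between treated genotypes. Among changes that passed the test before or after, and not counting turns between values that passed in neither, directions turned with centring in wild-type cells for Otud6b (0.20), Usp24 (0.20), Usp54 (0.016) and Usp7 (0.064), and in the knockout for Usp47 (0.14). Averaging all probe sets turned Otud7b (-0.44), Usp12 (0.19), Usp16 (-0.12), Usp32 (0.0024), Usp34 (0.33) and Usp48 (-0.36) in wild-type cells and Stambpl1 (-0.18), Usp15 (-0.012), Usp48 (-0.052) and Usp8 (-0.30) in the knockout. It also turned Usp14 (-0.21) and Usp45 (-0.021) in the difference between responses, Cyld (-0.038) untreated, and Usp14 (-0.032), Usp16 (0.042) and Usp32 (-0.055) with MG132. Without suffixed probe sets Usp16 turned in wild-type cells (-0.45) and with MG132 (0.27), and Stambpl1 (-0.53) and Usp15 (-0.28) in the knockout. The cause was not tested. With the replicate number as a block the calls were 41, 36, 20, 38 and 37 in the same 5 comparisons, beside 38, 35, 19, 37 and 36, and no call was lost; 8 of 16 arrays correlated best with their own number. Among the other lists, 3 of the 20 genes related to deubiquitinases differed in response without KO untreated 3, beside 6. Proteases of SUMO, NEDD8 and UFM1 went from 5 to 8 calls between untreated genotypes with centring and from 7 to 4 with MG132 without KO MG132 3, and partners from 10 to 6 untreated without KO untreated 3.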
